A study of Rattus norvegicus with 8 samples.

Results

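Rrad, a small GTP-binding protein of striated muscle, and 4 genes of the L-type calcium channel were followed in rat soleus, a calf muscle made mostly of slow fibres, across a short loss of weight bearing and a return to walking. The channel genes were Cacna1s, Cacnb1, Cacnb3 and Cacna2d1. The members are all probe sets whose annotation names 1 of these 5 genes and no other gene, which gave 6 of 8740 probe sets and 5 of 4736 named genes. Cacna1s had 2 probe sets and each other gene had 1. The 5 genes were chosen by their signals on these same arrays, and no comparison is known to have been left out of that choice, so the values of all members in all 3 comparisons are a description and support no test.

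Walked rats (2 pools) first had 12 h of hindlimb unloading and then walked on a treadmill for 2 h in all, in bouts of 30 min separated by 30 min of cage activity over 4 h. Unloaded rats (3 pools) had only the 12 h in which the hindlimbs bore no weight. Control rats (3 pools) had 12 h of ordinary standing and movement in the cage. All rats were female, with strain and age not given in the sources used here, and each array held RNA pooled from the soleus of 8 to 10 rats, so an SD or SE measures the spread between pools and not between rats. Walked muscle was also sampled later after the start of unloading and had cage activity between the bouts. Walking cannot be told apart from this later time or from this cage activity. The RNA came from whole muscle, in which fewer cells of a type and less RNA per cell cannot be told apart.

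The unit throughout is the deposited MAS5 signal, a linear intensity whose trimmed mean was nearly the same on all 8 arrays as deposited. Array medians ran from 37.1 to 42.4. Log2 signals across the 5244 tested probe sets correlated at 0.949 to 0.963 within groups and at 0.913 to 0.945 between groups. On the first principal component, with 28.0% of the variance, control pool 3 lay at -30.0 and the other 2 controls at -14.2 and -16.3. The muscle markers Acta1, Ckm and Ttn and the slow fibre markers Myh7, Myl3 and Tnni1 were all measured and passed the filter on dim probe sets. The summed signal of the 3 slow fibre markers was 17569.1 to 19354.3 in walked, 13996.8 to 19672.1 in unloaded and 12203.7 to 13271.2 in control pools. That of the 3 skeletal muscle markers was 6444.6 to 8997.5 in walked, 4648.2 to 7594.4 in unloaded and 3501.2 to 4729.7 in control pools.

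In skeletal muscle a nerve impulse spreads into the transverse tubules, where the L-type channel acts mainly as a voltage sensor. Its pore-forming subunit, encoded by Cacna1s, is coupled to the ryanodine receptor of the sarcoplasmic reticulum, and the calcium released there drives contraction. A cytoplasmic beta subunit brings the pore to the membrane, and an extracellular alpha2delta subunit and a gamma subunit modify its gating. Rrad, also called Rad, belongs to the RGK family of GTP-binding proteins, which bind beta subunits and lower the calcium current of channels that hold them.

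Rrad was the member with the widest range. Its signal was 1416.4 and 2189.6 in the walked pools, 125.4, 109.2 and 145.5 in the unloaded pools, and 1054.9, 1348.4 and 1169.8 in the control pools. The unloaded pools lay far below all the others, and the walked pools lay above every control pool, without overlap between any 2 groups. Group means were 1803.0 ± 546.7 in walked (SD, n = 2), 126.7 ± 18.2 in unloaded (SD, n = 3) and 1191.0 ± 147.9 in control muscle (SD, n = 3). The spread between pools relative to the mean was 30.3% in walked, 14.4% in unloaded and 12.4% in control muscle. The order of the levels was thus walked, control, unloaded, and walked pool 1 lay nearer to the highest control pool than to walked pool 2.

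Unloaded against control, Rrad had a log2 fold change of -3.23 ± 0.18 (SE of the limma fit, 95% interval -3.64 to -2.83), so its signal in control muscle was 9.41 times that in unloaded muscle. This was the second lowest of the 5244 log2 fold changes, at rank 2 from the bottom. Walked against unloaded, the log2 fold change was 3.81 ± 0.20 (3.36 to 4.26), a 14.0-fold higher signal in walked muscle and rank 9 from the top. Walked against control, it was 0.57 ± 0.20 (0.12 to 1.02), rank 540 from the top. That last value became 0.26 when walked pool 2 was dropped and 0.89 when walked pool 1 was, so its size rested on which of the 2 walked pools was used. Of the skeletal muscle markers, Acta1 (1.07, limma adjusted p = 0.0221) and Ckm (0.93, 0.0361) were called higher in walked against control, while Ttn had -0.86 (0.432). Of the slow fibre markers, Myl3 (0.58, limma adjusted p = 0.0491) and Tnni1 (0.58, 0.0377) were called higher there, and Myh7 had 0.47 (0.0618). The called changes were as large as that of Rrad or larger, and the part of these markers in the Rrad value was not tested. With control pool 3 left out, the 3 values were -3.24, 3.81 and 0.57. The comparisons share arrays, so these 3 values are not independent of each other.

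**Figure D1:**
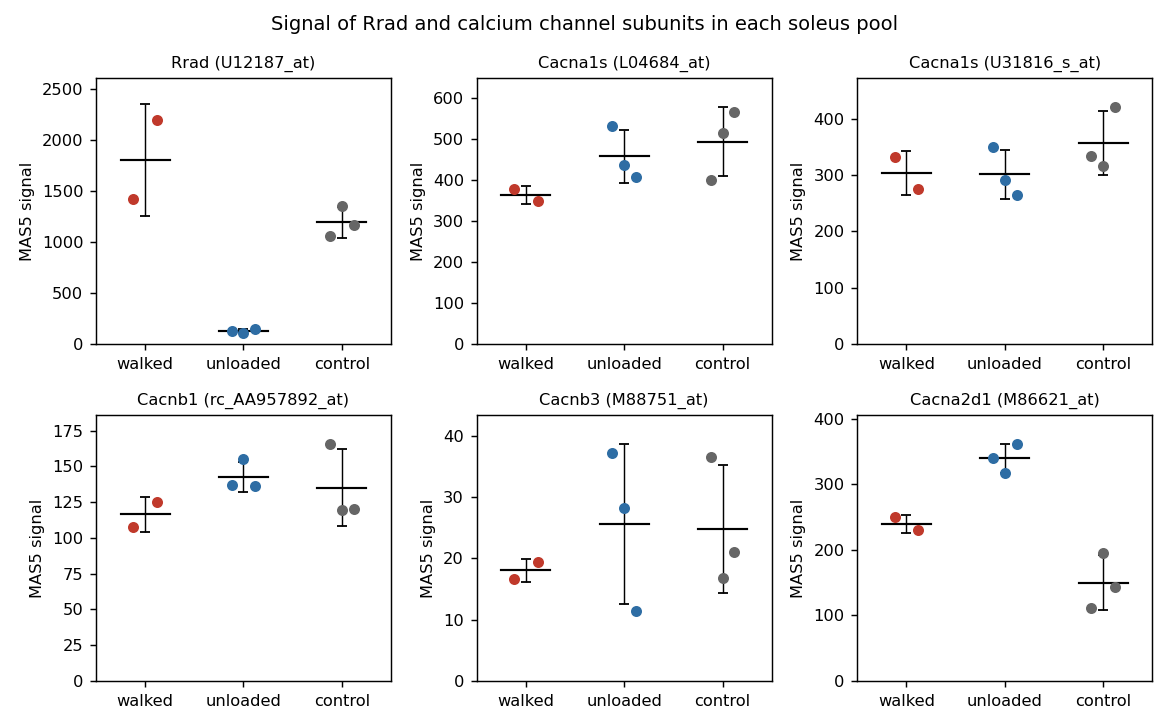
MAS5 signal (linear vertical axes starting at 0) of the 6 member probe sets in walked (2 pools), unloaded (3) and control (3) soleus; each point is 1 pool, the horizontal line the mean and the bar the SD. Rrad lay at 109.2 to 145.5 in the unloaded pools and at 1054.9 or more in all others, while Cacna2d1 was highest in the unloaded pools, at 317.3 to 361.6.

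Smooth muscle also makes Rrad, so markers of other cells were set beside these values. Of 5 smooth muscle markers 4 were measured (Acta2, Myh11, Tagln and Cnn1), and their summed signal was 1447.0 to 1732.3 in walked, 1070.9 to 1383.9 in unloaded and 1678.1 to 2357.5 in control pools. That sum was lowest in the unloaded pools, as Rrad was. It was mostly Acta2, with a mean signal of 1216.0, against 226.2 for Tagln, 99.6 for Myh11 and 30.8 for Cnn1. The name ending of the Acta2 probe set marks it as able to match several transcripts of a gene family. Its signal, and with it most of the sum, may therefore not be Acta2 alone. The means of Acta2, Tagln and Cnn1 were lowest in unloaded muscle, but that of Myh11 was lowest in walked muscle (79.2, against 101.5 in unloaded and 111.4 in control). Only Tagln was called lower in unloaded than in control muscle (log2 fold change -0.96, limma adjusted p = 0.0223), a much smaller change than that of Rrad. Endothelial markers (3 of 5 measured, Vwf below the filter) summed to 168.2 to 174.9 in walked, 161.9 to 192.4 in unloaded and 204.4 to 253.8 in control pools. Nerve and Schwann cell markers (4 of 6 measured, S100b and Nefl below the filter) summed to 88.5 to 125.5, 124.2 to 160.6 and 129.0 to 136.6 in walked, unloaded and control pools. Of these Prx was called lower in walked against unloaded (-1.23, limma adjusted p = 0.0421), while Mbp had 0.41 there. Of the fast fibre markers Myh2 (-0.64, limma adjusted p = 0.0303) and Tnni2 (-0.83, 0.0278) were called lower in the same comparison. Tnnt3 (-0.41) and Myh4 (-0.14) were not called there, nor was Myh1, which went the other way (0.49). No marker was at the floor on every array. The part of these cells in the Rrad values was not tested.

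By Pearson correlation of log2 signal over the 8 arrays, the genes most like Rrad were Klf6 (0.982), Atxn7l3 (0.981), Atp6v0c (0.976), Id1 (0.971), Actb (0.968) and Medag (0.965). The arrays fall into 3 groups, so these correlations chiefly describe group levels, and they are given without a test. Klf6, a zinc finger transcription factor induced early by many stimuli, had a signal of 101.3 and 105.2 in walked, 14.4, 20.8 and 16.4 in unloaded and 64.4, 80.0 and 78.8 in control pools. Like Rrad it was lowest in all unloaded pools and higher in the walked pools than in any control pool. Id1, an inhibitor of basic helix-loop-helix transcription factors, had 431.3 and 430.6 in walked, 96.4, 123.1 and 108.1 in unloaded and 294.8, 271.2 and 313.8 in control pools. The 2 walked pools thus gave nearly the same Id1 and Klf6 signals, while their Rrad signals were 1416.4 and 2189.6.

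The other 4 shared the low level in unloaded muscle, but their walked and control pools overlapped, with log2 fold changes of 0.00 to 0.10 walked against control. Unloaded against control, the log2 fold change was -0.49 ± 0.19 for Atxn7l3, a component of a histone deubiquitinating module, -0.50 ± 0.11 for Atp6v0c, a subunit of the vacuolar proton pump, -0.64 ± 0.12 for the cytoskeletal actin Actb and -0.54 ± 0.16 for Medag. Walked against unloaded, these 4 had log2 fold changes of 0.48 to 0.68. The genes most opposite to Rrad were Cited2 (-0.989), a transcriptional coregulator, Pfkfb1 (-0.977), an enzyme that sets fructose 2,6-bisphosphate, and Gpam (-0.970), the first enzyme of glycerolipid synthesis. Pfkfb1 had a signal of 86.3 and 88.8 in walked, 337.3, 337.8 and 333.0 in unloaded and 107.8, 97.3 and 74.0 in control pools. All 3 unloaded pools stood above every other pool, the reverse of Rrad.

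**Figure D2:**
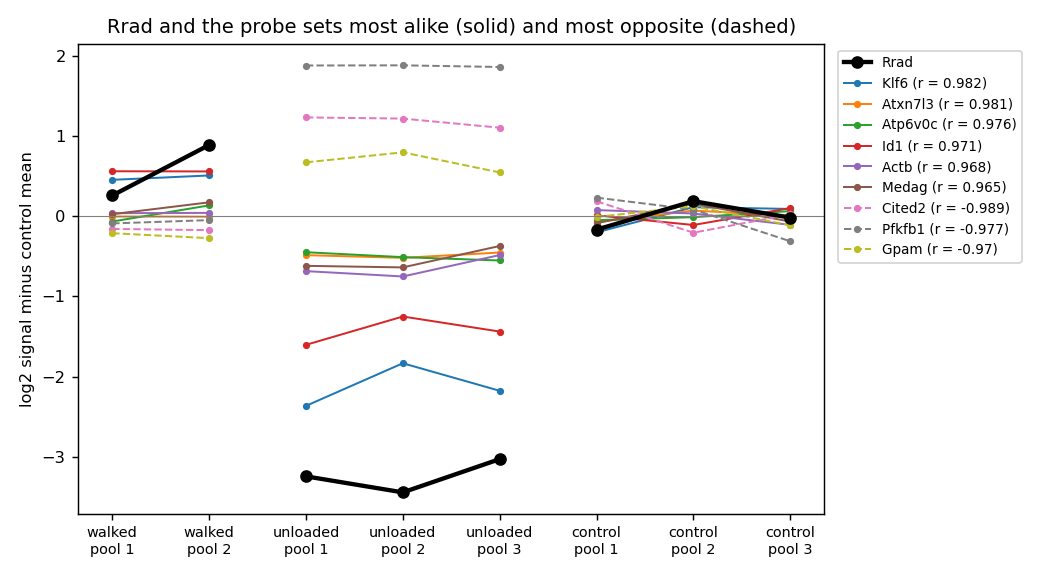
Log2 signal minus the mean of the control pools (vertical axis) in each of the 8 pools (horizontal axis) for Rrad, the 6 genes most like it and the 3 most opposite, with Pearson r over the 8 arrays in the legend. Rrad dropped furthest below 0 in the unloaded pools, followed by Klf6 and Id1, and Pfkfb1 stood furthest above it.

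Cacna1s, the pore and voltage sensor, stayed within a narrow range. Its brighter probe set had a signal of 380.1 and 349.0 in walked, 531.6, 437.7 and 407.8 in unloaded and 401.2, 515.2 and 567.1 in control pools. Unloaded and control pools overlapped, and both walked pools lay below every other pool. The dimmer probe set, whose name ending marks it as able to match several transcripts, had 331.9 and 275.8 in walked, 349.3, 290.9 and 264.0 in unloaded and 334.2, 315.6 and 421.0 in control pools. There all 3 groups overlapped, so the lower walked level was seen on 1 of the 2 probe sets. The 2 probe sets correlated at 0.681 over the 8 arrays.

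The log2 fold changes of the brighter Cacna1s probe set were -0.32 ± 0.18 walked against unloaded (95% interval -0.72 to 0.08), -0.10 ± 0.16 unloaded against control (-0.46 to 0.26) and -0.42 ± 0.18 walked against control (-0.82 to -0.02). The dimmer probe set had 0.02 ± 0.19 (-0.39 to 0.42), -0.24 ± 0.17 (-0.61 to 0.12) and -0.22 ± 0.19 (-0.63 to 0.18) in the same comparisons. The intervals in unloaded against control lie far from the -3.23 of Rrad.

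Cacnb1, the beta subunit of skeletal muscle and so the kind of subunit RGK proteins bind, had a signal of 107.7 and 125.3 in walked, 136.7, 154.9 and 136.2 in unloaded and 166.0, 119.4 and 120.4 in control pools. The walked pools lay below every unloaded pool, and control pool 1 was the highest of all 8. Its log2 fold change was -0.29 ± 0.20 walked against unloaded (-0.72 to 0.14), 0.09 ± 0.18 unloaded against control (-0.30 to 0.48) and -0.20 ± 0.20 walked against control (-0.63 to 0.23).

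Cacnb3, a beta subunit better known from nerve and smooth muscle, was dim. Its mean signal over the 8 arrays was 23.4, below the 25.8 required for testing, so it was left out of the fit. Its signal was 16.7 and 19.4 in walked, 37.2, 28.2 and 11.4 in unloaded and 36.5, 16.8 and 21.0 in control pools. The unloaded and control pools spanned nearly the same range, with the spread between pools at 51.2% and 41.9% of the mean. In a fit without the filter its 95% intervals ran from -1.75 to 1.07 walked against unloaded, from -1.30 to 1.23 unloaded against control and from -1.79 to 1.03 walked against control, so a change of 2-fold either way could not be detected for this gene at this signal.

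Cacna2d1, the alpha2delta-1 subunit and the binding site of gabapentin, was highest in the unloaded pools, where Rrad was lowest. Its signal was 249.7 and 229.9 in walked, 340.5, 317.3 and 361.6 in unloaded and 111.1, 194.5 and 143.6 in control pools. The 3 groups did not overlap, with all unloaded pools highest, the walked pools in between and all control pools lowest. The means were 239.8 ± 14.0 in walked (SD, n = 2), 339.8 ± 22.2 in unloaded (SD, n = 3) and 149.7 ± 42.0 in control muscle (SD, n = 3).

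Unloaded against control, the log2 fold change of Cacna2d1 was 1.22 ± 0.19 (0.79 to 1.64), a 2.33-fold higher signal, rank 113 from the top of the 5244. Walked against unloaded, it was -0.50 ± 0.22 (-0.97 to -0.03). Walked against control, it was 0.72 ± 0.22 (0.24 to 1.19), and 0.93 without control pool 2, the highest control. With control pool 3 left out, the first and last of these were 1.21 and 0.71. The genes most like Cacna2d1 over the 8 arrays were Vps29 (0.982), a retromer subunit, the fatty acid binding protein Fabp4 (0.965), a marker of fat cells, and Plaat5 (0.964). Fabp4 had a signal of 199.4 and 151.8 in walked, 303.8, 253.7 and 303.8 in unloaded and 92.4, 132.9 and 81.6 in control pools, and the part of other cell types in the Cacna2d1 values was not tested.

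Across the members, 1 of the 5 tested probe sets was called higher and 1 lower in unloaded against control, and 1 higher in walked against unloaded. In walked against control 0 were called. Of all tested probe sets 7.30% were called in unloaded against control (3.99% higher and 3.32% lower), 4.20% in walked against unloaded (2.73% higher and 1.47% lower) and 9.08% in walked against control (4.46% higher and 4.61% lower). The groups did not overlap for 2 of the 5 in unloaded against control, against 26.4% of all tested probe sets (10.2% higher and 16.2% lower). They did not overlap for 4 in walked against unloaded, against 35.1% (13.3% higher and 21.8% lower), and for 3 in walked against control, against 43.0% (15.3% higher and 27.8% lower). Because the members were chosen with these values known, nothing is read from the counts. The median log2 fold change of the 4 channel probe sets that were tested was -0.01, -0.30 and -0.21, against -0.08, -0.05 and -0.11 over all tested probe sets. Rrad correlated with Cacna2d1 at -0.696 over the 8 arrays, with Cacnb1 at -0.495, with Cacna1s at -0.231 and with Cacnb3 at -0.187, which again describes group levels more than pools.

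**Figure D3:**
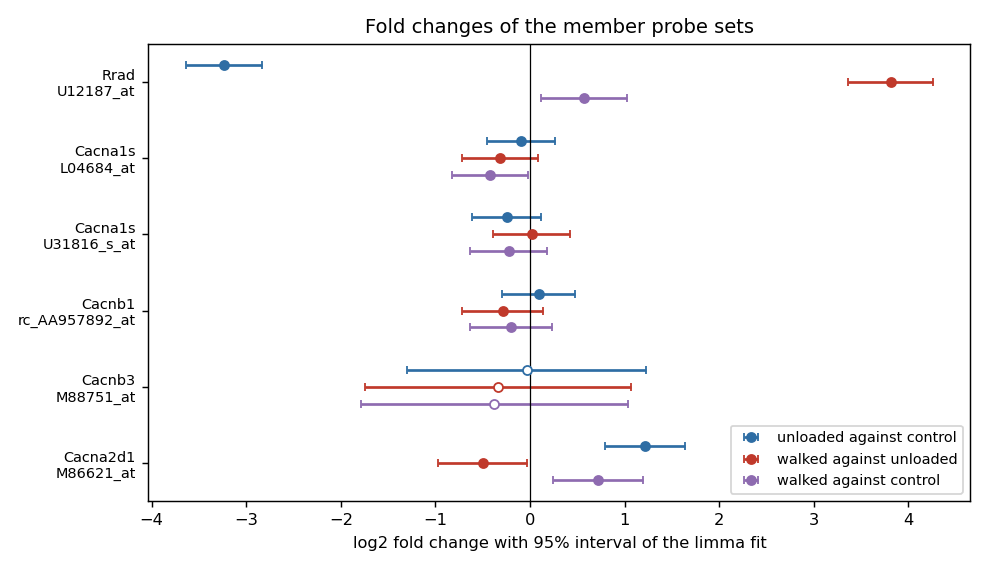
Log2 fold change (horizontal axis, points) with the 95% interval of the limma fit (bars) for the 6 member probe sets in 3 comparisons; open points mark Cacnb3, which was fitted without the filter. Rrad stands at -3.23 and 3.81, Cacna2d1 at 1.22 in unloaded against control, and the intervals of Cacnb1 and Cacnb3 include 0 throughout.

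The stretch before the annotated start of Cacna1s, the pore subunit, and of Cacna2d1 is shown because these channel genes differ in how their signals varied. The sequences are the 250 bases upstream of the start, from RefSeq on rat build GRCr8, 5′ to 3′, with Cacna2d1 read at the most upstream of its 3 annotated starts. Of the members, Cacna1s, Cacnb3 and Cacna2d1 had an entry. Capitals mark matches to any motif searched, on either strand.
Cacna1s, chr13:50045418-50045667, + strand: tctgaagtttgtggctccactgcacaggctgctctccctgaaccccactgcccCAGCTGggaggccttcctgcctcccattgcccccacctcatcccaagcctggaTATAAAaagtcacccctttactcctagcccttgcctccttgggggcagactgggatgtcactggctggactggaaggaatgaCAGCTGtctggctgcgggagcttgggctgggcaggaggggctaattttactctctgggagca
Cacna2d1, chr4:20330148-20330397, - strand: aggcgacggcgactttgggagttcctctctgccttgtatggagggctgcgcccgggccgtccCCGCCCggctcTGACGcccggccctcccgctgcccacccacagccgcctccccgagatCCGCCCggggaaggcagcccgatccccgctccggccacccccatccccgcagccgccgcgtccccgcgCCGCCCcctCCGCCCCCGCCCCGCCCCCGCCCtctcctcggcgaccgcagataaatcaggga

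The motifs searched were the cAMP response element (TGACGTCA), its core (TGACG), which the full element contains, the AP-1 site (TGANTCA), the E-box (CANNTG), the NGFI-B response element (AAAGGTCA), the GC box (GGGCGG), the TATA box (TATAAA), the heat shock element (GAANNTTC), the CArG box and the MEF2 box. The Cacna1s window held 2 E-boxes, which begin 197 and 62 bases before the start, and 1 TATA box, 144 bases before it. Of 33469 windows of the same length 65.5% held an E-box and 12.9% a TATA box. The Cacna2d1 window held 7 GC boxes, read here as CCGCCC on the strand shown, which 30.5% of all windows hold at least once, and 1 TGACG, which 18.2% hold. The windows at its annotated starts 2 and 3, not shown, held 3 GC boxes each and no TGACG. G and C made up 59.2% of the Cacna1s window and 77.2% of the Cacna2d1 window, against a median of 51.2% over all windows, and CG occurred 1 and 32 times against a median of 5. The Cacnb3 window, not shown, was also rich in G and C, at 76.4% with 35 CG. It held 3 GC boxes and 2 E-boxes. The matches are a description of these letters and were not tied to any measured binding.

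The other genes of the pathway were read from 4 lists and tested in the same fit. Of 23 genes for other subunits of voltage-gated calcium channels and the adaptor Stac3, 10 were measured and 6 passed the filter (Cacna1a, Cacna1b, Cacna1c, Cacna1e, Cacna1g and Cacng1). Limma called 0 of the 6 in every comparison. Of all tested probe sets 4.20% were called in walked against unloaded, 7.30% in unloaded against control and 9.08% in walked against control. At an unadjusted p under 0.05, 1 was lower in walked against unloaded, 1 higher in unloaded against control and 1 lower in walked against control. Their median log2 fold change was -0.26, 0.19 and -0.24 in these comparisons, against -0.05, -0.08 and -0.11 over all tested probe sets. Cacna1d, Cacna1h, Cacnb2 and Cacnb4 were measured but dim, with mean signals of 20.6 or less on their brightest probe sets.

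Cacng1, the gamma subunit of the skeletal muscle channel, was singled out after its values were seen, since it completes the same complex. Its signal was 505.0 and 512.0 in walked, 779.5, 667.5 and 722.7 in unloaded and 659.3, 691.0 and 818.1 in control pools. As with the brighter Cacna1s probe set, both walked pools lay below every other pool and the remaining groups overlapped. Of all tested probe sets, the walked pools lay below every unloaded pool in 21.8% and below every control pool in 27.8%. Its log2 fold change was -0.50 ± 0.14 walked against unloaded (limma adjusted p = 0.0868), 0.00 ± 0.13 unloaded against control (adjusted p = 0.988) and -0.50 ± 0.14 walked against control (adjusted p = 0.0542), with none past the threshold. Cacna1c, the pore of heart and smooth muscle, had -0.25 ± 0.42, -0.47 ± 0.38 and -0.72 ± 0.42 in the same comparisons. Cacna1a had -0.26 ± 0.18, 0.52 ± 0.16 and 0.26 ± 0.18, with a limma adjusted p of 0.0742 in unloaded against control.

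The second list held the RGK proteins and proteins known to bind Rad or RGK relatives, among them calmodulin, calmodulin-dependent kinase II, the 14-3-3 proteins and nucleoside diphosphate kinases. Of its 21 genes 16 were measured and 14 passed the filter. Its RGK genes Gem, Rem1 and Rem2 were not analysed here. In walked against unloaded 1 of the 14 rose and 0 fell, in unloaded against control 1 rose and 1 fell, and in walked against control 2 rose and 1 fell. The shares of all tested probe sets called in these comparisons were 4.20%, 7.30% and 9.08%. Dropping unloaded pool 3 gave 2 higher in unloaded against control and 3 higher in walked against control. The median log2 fold change of the 14 was 0.13, -0.23 and -0.07 in these comparisons, against -0.05, -0.08 and -0.11 over all tested probe sets.

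Calm2, 1 of 3 genes that encode the calcium sensor calmodulin, had a signal of 432.4 and 420.5 in walked, 341.6, 275.6 and 324.1 in unloaded and 165.6, 200.7 and 132.5 in control pools. The 3 groups did not overlap, and the control pools were lowest. Calm2 rose in unloaded against control (log2 fold change 0.93 ± 0.17, limma adjusted p = 0.00715) and in walked against control (1.38 ± 0.19, adjusted p = 0.00179). Walked against unloaded, it had 0.45 and an adjusted p of 0.25. The 2 calls against control held under all 17 alternatives tried, with values of 0.78 to 1.08 and 1.23 to 1.53.

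Ywhaz, the zeta 14-3-3 protein, which docks on phosphorylated partners, had 3 probe sets. On the brightest the signal was 414.7 and 506.1 in walked, 223.7, 211.7 and 202.6 in unloaded and 336.2, 277.5 and 271.4 in control pools. As with Rrad, the unloaded pools were lowest and the walked pools highest. Against unloaded muscle it rose in walked muscle by 1.11 ± 0.16 (limma adjusted p = 0.00209), and against control by 0.64 ± 0.16 (adjusted p = 0.035). The call against control did not hold when control pool 2, control pool 3 or either walked pool was dropped, and the other 2 probe sets had -0.13 and 0.09 there, with overlapping groups. Unloaded against control, this probe set had -0.47 and was not called (adjusted p = 0.0851), while the other 2 fell, by 0.73 and 0.81, calls that did not hold when any 1 of control pools 1 and 2 and unloaded pools 1 and 2 was dropped. In walked against unloaded a second probe set rose by 0.89 (adjusted p = 0.0357, not held when control pool 1, unloaded pool 1, unloaded pool 2 or either walked pool was dropped) and the last had 0.60 (0.113).

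Nme2, a nucleoside diphosphate kinase, had 1583.8 and 1624.7 in walked, 1443.3, 1474.4 and 1917.0 in unloaded and 2410.8, 2141.8 and 2701.7 in control pools, with every control pool above all others. It fell in unloaded against control (-0.59 ± 0.14, limma adjusted p = 0.0273) and in walked against control (-0.58 ± 0.16, adjusted p = 0.0433). Its probe set can match several transcripts, and Nme1 is a close relative, so the signal may not be Nme2 alone. The first call did not hold when any 1 of control pools 1 and 3 and unloaded pools 1 and 2 was dropped, and the second was lost without any 1 array but unloaded pool 3. Ywhaq, the theta 14-3-3 protein, was called on 1 of 3 probe sets in walked against control (-0.84 ± 0.23, adjusted p = 0.048), with -0.04 on its brightest, and that call was lost without any 1 control or walked pool or unloaded pool 2.

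The third list held proteins of the triad, where tubule and sarcoplasmic reticulum meet. Of its 19 genes 9 were measured and 8 passed the filter, and the ryanodine receptor Ryr1 was not analysed here. Limma called 0 of the 8 in walked against unloaded (1 higher and 1 lower at an unadjusted p under 0.05) and 0 in unloaded against control (1 higher and 2 lower unadjusted). In walked against control, where 4.61% of all tested probe sets were called lower, 1 of the 8 fell. That gene was Casq1, the calcium-binding protein of the fast-type reticulum. Its signal was 1733.5 and 1603.7 in walked, 2337.6, 1897.2 and 2140.4 in unloaded and 2278.7, 2393.1 and 2334.5 in control pools. The walked pools were the lowest of all, by -0.48 ± 0.13 against control (limma adjusted p = 0.0409), a call lost without any 1 control or walked pool. In unloaded against control, dropping control pool 2 gave 1 gene of the 8 higher and 1 lower, and dropping unloaded pool 3 gave 1 lower. Calr, an endoplasmic reticulum calcium-binding chaperone, fell in unloaded against control on 1 of its 3 probe sets (-0.83 ± 0.18, adjusted p = 0.0193), with -0.46 on the brightest. That call did not hold when any 1 of control pools 1 and 3 and unloaded pools 1 and 3 was dropped.

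The fourth list held pumps, exchangers, buffers and other calcium channels of the membranes. Of its 19 genes 17 were measured and 15 passed the filter. Limma called 0 of the 15 in walked against unloaded (0 higher and 1 lower at an unadjusted p under 0.05) and 0 in unloaded against control (1 higher and 1 lower unadjusted). In walked against control, where 4.61% of all tested probe sets were called lower, 1 of the 15 fell. That was Itpr3, an inositol trisphosphate receptor, with a signal of 248.3 and 222.7 in walked, 273.1, 245.4 and 286.2 in unloaded and 393.9, 313.1 and 393.4 in control pools. Every control pool was above all others, and the log2 fold change was -0.63 ± 0.16 (limma adjusted p = 0.0376) with 0.04 on its other probe set. The call did not hold when control pool 1, control pool 3, unloaded pool 1 or either walked pool was dropped. Dropping unloaded pool 3 gave 1 gene of the 15 higher in unloaded against control. The median log2 fold change of the list was -0.08, -0.03 and 0.04 in walked against unloaded, unloaded against control and walked against control, close to the -0.05, -0.08 and -0.11 of all tested probe sets.

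**Figure D4:**
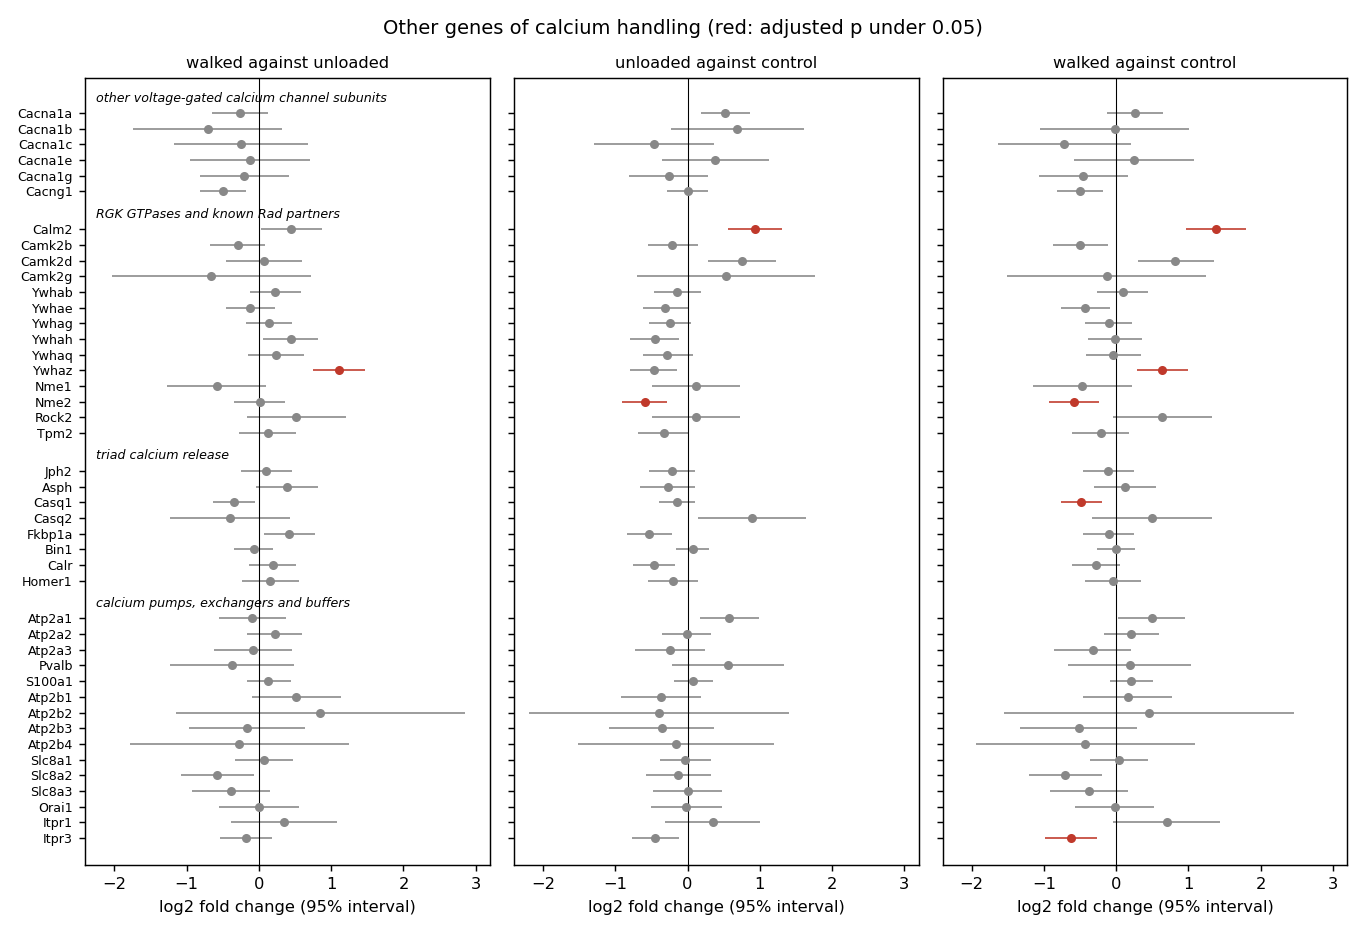
Log2 fold change (horizontal axes, points) with 95% interval (bars) of the brightest probe set of each tested gene in the 4 lists, 1 panel per comparison; red marks an adjusted p under 0.05. Ywhaz stands out at 1.11 in walked against unloaded and Calm2 at 0.93 and 1.38 against control, and no other voltage-gated channel subunit is red.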

How the data were processed

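RNA of 8 soleus pools was measured on 1 Affymetrix array each, from 10 microg total RNA per the labels. What the authors deposited is 1 linear signal intensity per probe set, and the submitters' processing notes name MAS5. The version and the scaling target were not stated there. MAS5 combines the probe pairs of a set after background subtraction, so dim signals are noisy. The trimmed means of the deposited columns lay between 148.4 and 148.8.

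Each array was scaled to a 2% trimmed mean of 148.6, values under the 10th percentile (4.10) were set to it, and log2 was taken. Probe sets under the 40th percentile of mean signal (25.8) were left out, leaving 5244 of 8740. Signals printed are those deposited, and fold changes come from limma 3.58.1 in R 4.3.3, fitted to all 8 arrays with 3 groups (eBayes with a trend, two-sided, 5 residual and 6.00 prior degrees of freedom), with Benjamini-Hochberg adjustment over all tested probe sets and a threshold of 0.05. The procedure was tested on simulated data. With 3 against 3 pools, or 3 against 2, the smallest exact permutation p is 0.1. The number of arrays limits the precision.

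Platform annotation named 7006 probe sets with 1 gene, 308 with several and 1426 with none here; 6985 matched the GRCr8 gene table by Entrez ID and 0 symbols changed. A list gene is counted by its brightest tested probe set. The members and lists were chosen with earlier results of these data known. Genes named were all members, every list gene with a called probe set, and the genes most like or opposite to a member. For likeness, 6 alike and 3 opposite were taken for Rrad. Cacng1, Cacna1c and Cacna1a were described after their values were seen. The lists named in the report also include markers of heart and fast fibres. Same-numbered pools did not deviate together, so the numbers were not taken to pair samples. Alternatives were quantile normalization, no rescaling, other floors and filters, no trend, fits of 2 groups only, the pool number as a block, the mean over probe sets and each array left out.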

Additional observations from a re-analysis of the deposited data

How the results depend on the processing

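The Rrad values, a description of a member chosen on these arrays, ran under the 17 alternatives from -3.34 to -3.13 in unloaded against control, from 3.49 to 4.12 in walked against unloaded and from 0.26 to 0.89 in walked against control. Cacna2d1 ran from 1.02 to 1.43 in unloaded against control. In walked against control Cacna2d1 ran from 0.52 to 0.93, not called in the main fit but called under 2 of the 17. Cacna1s changed sign in unloaded against control without control pool 3 (0.01, with -0.24 to 0.01 over single arrays left out, against -0.10), and its dimmer probe set did in walked against unloaded when unloaded pool 2 or 3 or walked pool 1 was left out, where leaving out single arrays gave -0.12 to 0.15 and 0.00 without unloaded pool 2 and -0.07 without unloaded pool 3. Of the list genes, Calm2 in its 2 calls and the brightest Ywhaz probe set in walked against unloaded kept their calls under all alternatives, which for list genes were added after seeing the data. Every other call of a list gene was lost with no filter, and every one but that of Calr was lost without a trend. In walked against control, the calls of Itpr3 and Ywhaq were also lost under quantile normalization.

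The number of called probe sets in unloaded against control was 383, and 228 with no filter and 243 without a trend, and 230 to 405 when single arrays were left out. In walked against unloaded it was 220, and 120 to 261 without single arrays. In walked against control it was 476, and 216 with no filter, 211 without a trend and 104 to 504 without single arrays. The fit without a filter held more tests, and the fits that leave 1 array out held fewer arrays. The causes of these shifts were not tested. With the pool number as a replicate block the counts were 177 in walked against unloaded, 394 in unloaded against control and 251 in walked against control, and Rrad had 3.86, -3.23 and 0.62. Deviations of the 7 same-numbered pairs correlated at -0.067 to 0.052, and 2 of 6 control and unloaded pools correlated best with their own number. With 2 or 3 pools a group this check showed no pairing but cannot exclude it, and the labels give only a number. Dim signal limits Cacnb3 most. Precision for walked muscle rests on 2 arrays. Fast fibre markers (5 of 6 measured) summed to 4833.4 to 5319.9 in walked, 6862.9 to 8198.4 in unloaded and 5243.5 to 6502.3 in control pools. Heart markers (4 of 4 measured, Nppa below the filter) summed to 4704.5 to 5360.3, 5095.0 to 5818.8 and 4695.0 to 5129.2 in the same groups. Myh6 made up nearly all of the heart sum, with a mean signal of 4970.9, against 86.0 for Tnnt2, 46.1 for Tnni3 and 23.8 for Nppa. The name ending of the Myh6 probe set marks it as able to match several transcripts of a gene family, so its signal may not be Myh6 alone.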
